A study of Mus musculus with 6 samples.

Results

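Angptl7, Apod, Clu and Gsn are 4 of the 26130 genes in a count table of mouse skeletal stem cells sorted from the Achilles tendon-to-bone interface. They were selected on their depth-scaled counts, because every injured library lay below every non-injured library for each of them. That difference is therefore described here without a test. Each gene was matched by its symbol, and all 4 were among the 14110 genes that passed the filter on low counts. The cells came from C57BL/6 mice, and the injury was a partial one of the tendon-to-bone interface, with RNA taken at day 7. There were 2 sham control libraries, 1 uninjured library and 3 injured libraries. The library titled uninjured is named a sham in its description, and the 2 sham libraries and this one are together called non-injured. No genotype, age, sex or pooling is named in the labels, nor whether libraries came from separate animals, so p-values reflect the spread among libraries, which could be technical.

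All 4 genes encode proteins that stromal cells release into the matrix. Angptl7 (angiopoietin-like 7) is a secreted glycoprotein with a fibrinogen-like domain, known from the cornea and the outflow tissue of the eye. Apod (apolipoprotein D) is a lipocalin, a small barrel-shaped carrier of lipids, and is known to rise in fibroblasts that stop dividing. Clu (clusterin, also called apolipoprotein J) is an extracellular chaperone that binds misfolded proteins and blocks the final steps of complement. Gsn (gelsolin) severs and caps actin filaments and is made both as a cytoplasmic and as a secreted plasma form from the same gene, so a count per gene does not separate the secreted product from the intracellular one.

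In the GENCODE annotation of build GRCm38, Angptl7 is a single-transcript gene at chr4:148495183-148500460 on the minus strand. It lies inside Mtor, which runs on the opposite strand, and shares 0 exonic bases with it. Apod lies at chr16:31296192-31314808 on the minus strand, Clu at chr14:65968483-65981547 and Gsn at chr2:35256380-35307892, both on the plus strand. Gsn has 6 protein-coding transcripts, Clu 6 and Apod 2. The sources used here do not say whether counting was stranded. Mtor itself had 41.3, 13.2 and 26.6 CPM (the depth-scaled count defined below) in sham 1, sham 2 and uninjured and 29.4, 22.1 and 21.5 CPM in injured 1, 2 and 3, so the host gene overlapped between the groups.

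Promoter sequences are shown because the genes differed in the same direction, while the 3 with a listed promoter have start sites of unlike base composition. RefSeq (build GRCm38.p6) gave promoters for 3 of the 4 genes, and the 250 bases before the start are printed for Angptl7 (chr4:148500463-148500712, minus strand), Apod (chr16:31314809-31315058, minus strand) and the most upstream and most downstream of the 3 listed starts of Gsn (chr2:35256109-35256358 and chr2:35282130-35282379, plus strand). Capitals mark the forkhead core TGTTT in Angptl7 and Apod, and the GC box GGGCGG and the CCAAT box CCAAT in Gsn, each on either strand.
Angptl7: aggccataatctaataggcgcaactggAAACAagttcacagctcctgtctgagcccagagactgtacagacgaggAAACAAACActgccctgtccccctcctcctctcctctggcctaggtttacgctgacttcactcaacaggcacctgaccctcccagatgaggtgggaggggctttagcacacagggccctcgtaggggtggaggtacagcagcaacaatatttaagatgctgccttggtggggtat
Apod: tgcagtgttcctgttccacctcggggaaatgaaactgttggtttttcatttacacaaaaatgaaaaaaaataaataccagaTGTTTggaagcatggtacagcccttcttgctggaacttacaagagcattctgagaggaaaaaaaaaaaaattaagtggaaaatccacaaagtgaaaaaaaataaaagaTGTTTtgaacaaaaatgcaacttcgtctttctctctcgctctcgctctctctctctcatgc
Gsn upstream start: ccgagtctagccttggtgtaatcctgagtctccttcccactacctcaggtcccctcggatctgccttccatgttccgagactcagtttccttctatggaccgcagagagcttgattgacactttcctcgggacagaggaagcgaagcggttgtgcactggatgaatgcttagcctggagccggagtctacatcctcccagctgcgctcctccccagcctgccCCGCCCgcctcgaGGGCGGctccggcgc
Gsn downstream start: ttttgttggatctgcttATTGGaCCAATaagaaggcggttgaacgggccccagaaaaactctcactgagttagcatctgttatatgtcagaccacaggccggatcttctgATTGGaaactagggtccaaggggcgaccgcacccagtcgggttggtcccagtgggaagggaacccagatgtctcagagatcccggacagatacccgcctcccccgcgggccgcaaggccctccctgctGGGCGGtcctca

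The Apod promoter had a GC content of 36.4%, against 54.4% for Angptl7, 60.8% and 57.6% for these starts of Gsn, and a median of 52.4% over the 32851 promoters listed. The forkhead core occurred 3 times in the Angptl7 window, where adjoining matches overlap by a base, and 2 times in that of Apod. It was absent from the windows of Gsn, and 46.4% of all listed promoters held it. The GC box was in all 3 Gsn windows and in 32.7% of all promoters, and the CCAAT box was in the middle and downstream Gsn windows and in 33.8% of all promoters. None of the windows held the FoxO site GTAAACA, the AP-1 site TGANTCA, the TEAD site GGAATG, the TATA box TATAAA or the glucocorticoid receptor core TGTTCT, which were in 3.17%, 6.75%, 12.6%, 12.4% and 16.1% of all listed promoters, both strands read. The full glucocorticoid response element, the heat shock element, the Smad palindrome and the NF-kappaB site also had no match, against 0.00913%, 0.466%, 0.167% and 1.41% of all promoters. The forkhead, GC box, CCAAT and TGTTCT searches were added after the other 8 had found no match. The FoxO site contains the forkhead core, so those searches overlap. These letter matches describe the windows and show no binding.

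Total counts were between 37506188 (uninjured) and 51089267 (injured 2). Libraries did not resemble one another by group alone: across the genes tested, which are not independent replicates, sham 2 had a Spearman rho of 0.901 with injured 3 and 0.729 with sham 1. Levels are given as CPM, counts scaled to library size with edgeR's TMM factors, and injured values always follow the order injured 1, 2 and 3. Of the surface genes usually used to define these cells, Itgav was between 31.1 and 116 CPM and Cd200 between 31.0 and 160.2 CPM over the 6 libraries. Genes usually selected against were uneven: Tek was highest in the uninjured library, at 61.7 CPM, and 58.1 CPM in sham 1, against 0.580 CPM in sham 2, and Thy1 was highest in injured 1, at 14.3 CPM.

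Angptl7 had the widest separation of the 4. In sham 1, sham 2 and the uninjured library it had 1336, 775 and 4207 CPM, and in the injured libraries 16.2, 12.9 and 20.5 CPM. The groups did not overlap, and the lowest non-injured library, sham 2, was 37.8-fold above the highest injured one. The means were 2106 ± 1841 CPM in non-injured and 16.5 ± 3.82 CPM in injured libraries (SD, n = 3 each). The log2 fold change was -7.00 ± 0.83 (SE) against all non-injured libraries and -6.00 ± 0.54 (SE) against sham control alone. Counts behind the injured values were 714, 781 and 958, so the gene was still measured in each injured library.

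Clu came next in the size of the difference. In sham 1, sham 2 and the uninjured library it had 2847, 6159 and 7849 CPM, and in the injured libraries 62.2, 228 and 131 CPM. Injured 1 was the lowest library, and the smallest gap between the groups, from injured 2 to sham 1, was 12.5-fold. The means were 5619 ± 2545 CPM in non-injured and 140.5 ± 83.4 CPM in injured libraries (SD, n = 3 each). The log2 fold change was -5.33 ± 0.75 (SE) against all non-injured libraries and -5.00 ± 0.77 (SE) against sham control alone. Without sham 2 the difference from sham control was -4.34. Clu was the most variable of the 4 genes among injured libraries, with a 3.67-fold range.

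Gsn had the highest CPM of the 4 genes in every library. In sham 1, sham 2 and the uninjured library it had 10562, 8243 and 25135 CPM, and in the injured libraries 1324, 895 and 1002 CPM. The uninjured library was the highest, and the smallest gap between the groups was 6.23-fold. The means were 14647 ± 9157 CPM in non-injured and 1074 ± 223 CPM in injured libraries (SD, n = 3 each). The log2 fold change was -3.78 ± 0.67 (SE) against all non-injured libraries and -3.13 ± 0.62 (SE) against sham control alone. In the uninjured library Gsn alone took 2.75% of all counts, against 0.101% to 0.117% in injured libraries.

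Apod was the most even of the 4 among injured libraries. In sham 1, sham 2 and the uninjured library it had 753, 473 and 948 CPM, and in the injured libraries 65.7, 66.3 and 61.7 CPM. The injured values spanned a 1.07-fold range, and sham 2, the lowest non-injured library, was 7.13-fold above injured 2. The means were 725 ± 239 CPM in non-injured and 64.5 ± 2.49 CPM in injured libraries (SD, n = 3 each). The log2 fold change was -3.49 ± 0.38 (SE) against all non-injured libraries and -3.25 ± 0.40 (SE) against sham control alone. Sham and uninjured values spanned a 2.01-fold range.

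**Figure D1:**
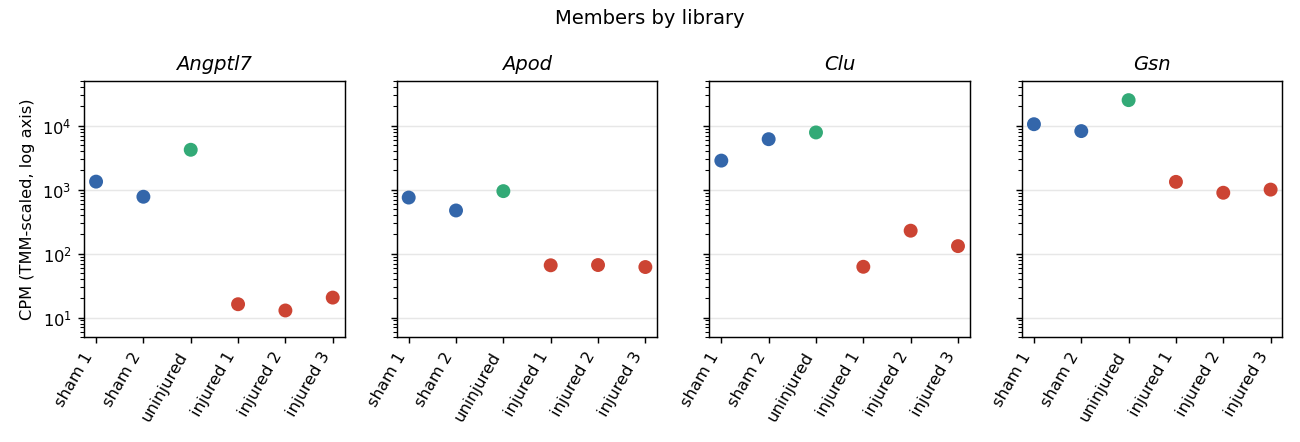
CPM of each of the 4 genes (log axis) in each library, with sham libraries in blue, uninjured in green and injured in red. Every injured point lies below every non-injured point, since that chose the genes, and the Apod values of the injured libraries, from 61.7 to 66.3 CPM, almost coincide.

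All injured libraries lay below all non-injured ones for 998 of the 14110 genes tested (7.07%), and above them for 1303 (9.23%). The 4 genes were chosen for this, so their count of 4 of 4 is not evidence. The choice also fixes that all 4 are lower with sham 1 and injured 1 left out, where 19.5% of all genes tested were lower in both injured libraries, so nothing is read from that. By size of the gap they ranked 7 (Angptl7), 18 (Clu), 31 (Apod) and 42 (Gsn) among the 998. Klf2 and Pcolce2, from the gene lists below, lay just inside the same criterion, with a lowest non-injured level of 317 and 231 CPM against a highest injured level of 317 and 228 CPM. Glul and Btg1 lay just outside it, at 49.3 and 243 CPM against 49.8 and 253 CPM. Across all genes edgeR's quasi-likelihood test called 0 of 14110 (0%) against all non-injured libraries and 0 of 16752 (0%) against sham control at an adjusted p of 0.05. In the first of these the unadjusted p was under 0.05 for 525 genes lower (3.72%) and 524 higher (3.71%) in injured libraries, and DESeq2 called 345 genes (2.45%).

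Expressed per kilobase of the longest annotated protein-coding transcript, so that the genes can be set side by side, Gsn had 3981, 3107 and 9474 CPM per kb in sham 1, sham 2 and uninjured. Clu had 1573, 3403 and 4337 CPM per kb, and so exceeded Gsn in sham 2 only. Apod, at 363, 228 and 457, was the lowest of the 4 in all 3 non-injured libraries, where Angptl7 had 619, 359 and 1950.2 CPM per kb. In the injured libraries the order was Gsn, Clu, Apod and Angptl7 each time, and Angptl7 had 7.49, 5.98 and 9.51 CPM per kb. Together the 4 genes took 1.49%, 1.40% and 4.18% of all counts in sham 1, sham 2 and uninjured, and 0.130%, 0.142% and 0.123% in the injured libraries.

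The proportions among the 4 genes differed from library to library. The ratio of Clu to Gsn CPM was 0.270, 0.747 and 0.312 in sham 1, sham 2 and uninjured and 0.0470, 0.255 and 0.131 in injured 1, 2 and 3. The ratio of Apod to Gsn overlapped between the groups, at 0.0713, 0.0573 and 0.0377 in the non-injured libraries and 0.0496, 0.0740 and 0.0615 in the injured ones. Angptl7 to Gsn did not overlap, at 0.0940 to 0.167 in non-injured and 0.0122 to 0.0205 in injured libraries. Centred on their own means, the log2(CPM + 1) profiles of Apod and Gsn differed by a root mean square of 0.33 over the 6 libraries, and those of Angptl7 and Apod by 1.66.

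The criterion did not compare the uninjured library with the sham libraries, but it used the values of the same 3 libraries, so the test that follows is not wholly independent of it. All 4 levels were higher in the uninjured library than in both sham libraries. By edgeR, with the single uninjured library, which has no spread of its own, assumed to vary like the other groups, Angptl7 differed from sham control by 1.99 ± 0.61 log2 units (SE; adjusted p = 0.972). Gsn differed by 1.42 ± 0.79 (SE; edgeR adjusted p = 0.972), Clu by 0.80 ± 0.93 (adjusted p = 0.990) and Apod by 0.63 ± 0.51 (adjusted p = 0.972). None passed, and edgeR called 0 of 16752 genes (0%) here, with an unadjusted p under 0.05 for 629 (3.75%), while DESeq2 called 660.

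The tested family relatives of Angptl7, Apod and Gsn had smaller or opposite differences. Angptl7, Apod and Gsn were chosen for their separation and the relatives were not, so nothing is read from that contrast. Of the angiopoietin and angiopoietin-like family without Angptl7, 7 of 9 genes could be tested. Of these, 0 lay wholly below the non-injured libraries (7.07% of all genes) and 2 wholly above (9.23%), Angptl4 and Angptl6. Angptl6 was low, at 0, 1.24 and 1.39 CPM in sham 1, sham 2 and uninjured against 6.54, 4.24 and 1.82 CPM in the injured libraries. The median log2 fold change of the 7 tested was 0.65, against 0.00 over all genes tested. Angptl4, an inhibitor of lipoprotein lipase induced by fasting and low oxygen, had 27.2, 79.4 and 3.75 CPM in sham 1, sham 2 and uninjured and 368, 258 and 147 CPM in the injured libraries. Its groups did not overlap, in the direction opposite to Angptl7, and the log2 difference was 2.80 ± 0.98 (SE), with an adjusted p by edgeR of 0.552. Angptl2, a secreted relative made by many stromal cells, ranged over 319.9 to 982 CPM in non-injured and 711 to 1058 CPM in injured libraries, so that the groups overlapped. Lpl, lipoprotein lipase itself, lay wholly below, with 65.7, 26.8 and 103 CPM in sham 1, sham 2 and uninjured against 20.4, 23.1 and 8.18 CPM in the injured libraries (edgeR adjusted p = 0.516).

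Of 10 further lipocalins, relatives of Apod, Lcn2 and Rbp4 had enough counts to test. Lcn2, an iron-siderophore carrier of neutrophils and inflamed tissue, had 1053, 535 and 115 CPM in sham 1, sham 2 and uninjured and 499.6, 336 and 90.9 CPM in the injured libraries. Rbp4, the plasma retinol carrier, had a log2 fold change of 0.18 ± 0.54 (SE), and both genes overlapped between the groups. Among 15 apolipoprotein and lipoprotein genes 7 were tested, with 1 wholly below (Lpl, against 7.07% of all genes). Their median log2 fold change was -0.58, which was 0.04 without sham 1. Apoe, made by macrophages among other cells, ranged over 119 to 1173 CPM in non-injured and 21.5 to 1242 CPM in injured libraries.

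Of 7 other gelsolin family genes 5 were tested, 1 lay wholly below (7.07% of all genes) and the median log2 fold change was -0.23. That gene was Flii, a gelsolin-like actin regulator, with 136, 161 and 116 CPM in sham 1, sham 2 and uninjured and 87.6, 77.9 and 101 CPM in the injured libraries (log2 fold change -0.63 ± 0.29, SE; edgeR adjusted p = 0.708). The capping protein Capg ranged over 225 to 450.3 CPM in non-injured and 229.8 to 644 CPM in injured libraries, and the filament-severing Scin over 6.70 to 60.4 and 13.9 to 103 CPM. Of 25 tested genes of actin filament turnover, 5 had a log2 fold change below 0 (49.9% of all genes did), and the median was 0.19. Dstn, an actin-depolymerising factor, was the 1 wholly below (4%, against 7.07% of all genes), at -0.68 ± 0.33 (SE). Actr3, a subunit of the actin-branching Arp complex, and Wdr1, a partner of cofilin, were the 2 wholly above (9.23% of all genes). They stood at 0.71 ± 0.27 and 0.55 ± 0.32 (SE). Nothing is read from counts this small.

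**Figure D2:**
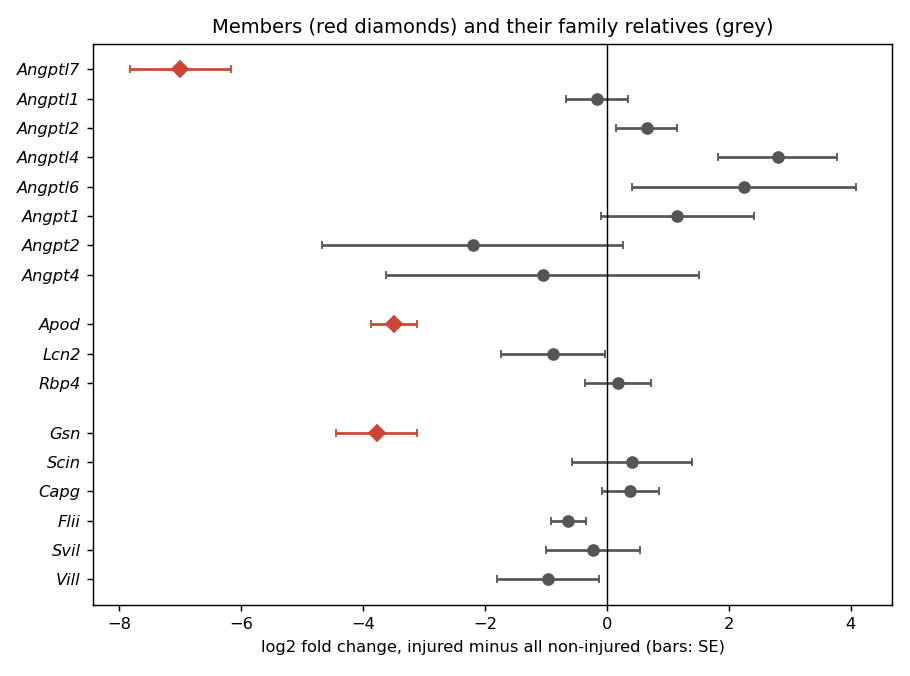
Log2 fold change with SE, injured minus all non-injured libraries, for Angptl7, Apod and Gsn (red diamonds, chosen for this difference) and the family relatives that could be tested (grey). The relatives lie between -2.20 (Angpt2) and 2.80 (Angptl4).

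Receptors of clusterin and other extracellular chaperones were mixed. Of 13 tested, 7 had a log2 fold change below 0 (49.9% of all genes did), and the median was -0.35. Wholly below lay 1 (7.07% of all genes) and wholly above 1 (9.23%). Lrp8, a lipoprotein receptor that binds clusterin, had 14.1, 8.73 and 0.292 CPM in sham 1, sham 2 and uninjured and 24.6, 25.2 and 33.3 CPM in the injured libraries, wholly above. Cst3 (cystatin C), a secreted inhibitor of cathepsins, lay wholly below, with 2354, 3429 and 2768 CPM against 684, 477 and 419 CPM. Cst3 is also among the 42 resting fibroblast genes read below, so it is counted in both lists. Its log2 fold change was -2.44 ± 0.41 (SE; edgeR adjusted p = 0.295). Of the 8 receptors listed for angiopoietin-type ligands, 0 lay wholly below (7.07% of all genes) and 0 wholly above (9.23%). Nothing is read from so few genes.

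A list of 42 genes of resting fibroblasts, most of them secreted or on the surface, drawn up with earlier results of these data known, was read for the wider setting. By edgeR 0 of 42 passed over all genes. An unadjusted edgeR p under 0.05 with a lower level in injured libraries was held by 24 (57.1%, against 3.72% of all genes). With a higher level it was held by 0 (3.71% of all genes). Leaving out 1 library each, the count of 24 became 17 to 22. DESeq2 called 20, all lower (2.45% of all genes, both directions). Of the 42, 22 lay wholly below (52.4%, against 7.07% of all genes tested) and 0 wholly above (9.23%). The median log2 fold change was -1.30 against 0.00 over all genes. Because the list was made with such results in view, these shares describe it and are not independent evidence.

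Several genes of that list were low in the same libraries as the 4. Tnxb (tenascin X), a matrix protein that organises collagen fibrils, had 254, 405 and 825 CPM in sham 1, sham 2 and uninjured and 49.7, 26.0 and 28.2 CPM in the injured libraries (edgeR adjusted p = 0.211). It was highest in the uninjured library. Serping1, the C1 inhibitor, had a log2 fold change of -1.89 ± 0.40 and Inmt, an intracellular methyltransferase, of -4.45 ± 0.89 (SE). Dcn (decorin), a collagen-binding proteoglycan, had 8729.9, 21175 and 20475 CPM against 3522, 6324 and 4679.8 CPM. Other widely used fibroblast genes overlapped between the groups: Dpt had a log2 fold change of -0.34 ± 0.43, Ly6a of -0.27 ± 0.41, Pcolce of -0.02 ± 0.35, Lum of 0.14 ± 0.70 and Cxcl12 of 0.11 ± 0.37 (SE).

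**Figure D3:**
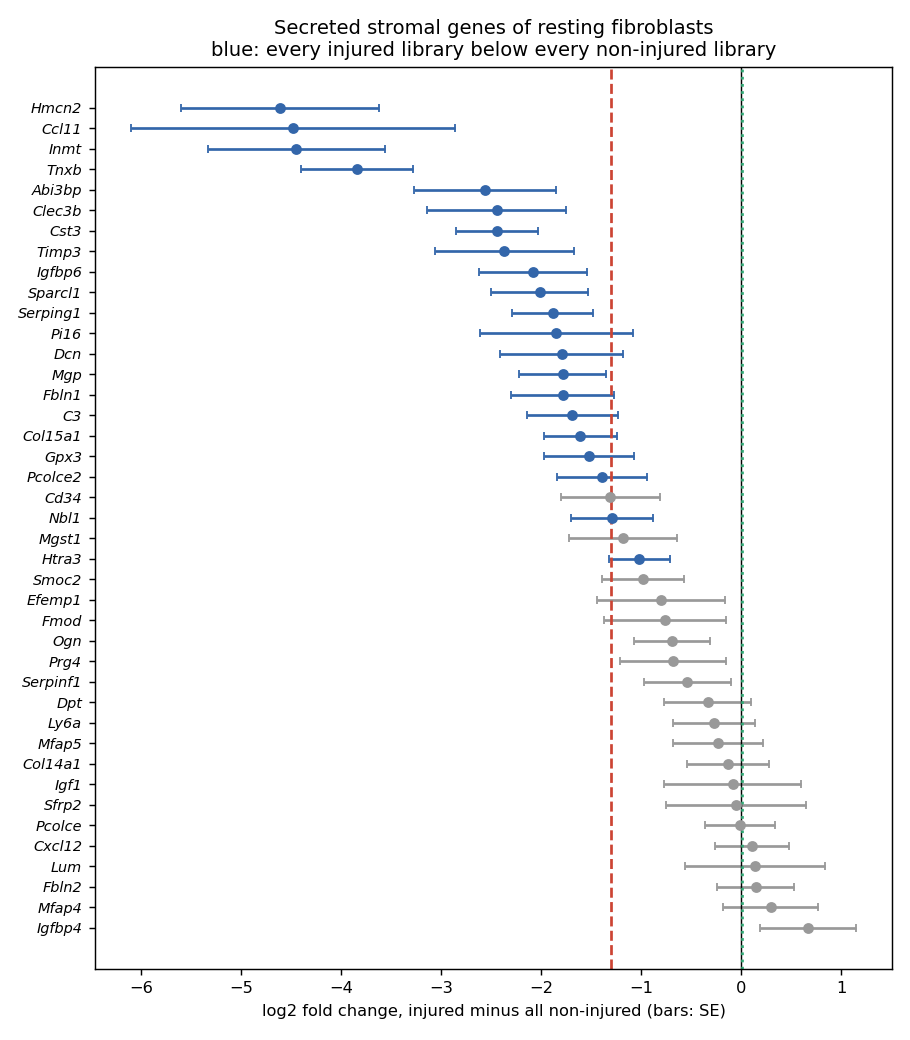
Log2 fold change with SE, injured minus all non-injured, for the stromal genes in order of size, 1 gene left out, with genes whose groups did not overlap in blue. The dashed red line is the median of the list (-1.30) and the dotted green line that of all genes tested (0.00).

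Genes induced by glucocorticoids were read because ANGPTL7 is known to rise with dexamethasone in human eye outflow tissue. Of 17 tested, 15 had a log2 fold change below 0 (49.9% of all genes did), 6 had an unadjusted p under 0.05, all lower (3.72% of all genes), and 5 lay wholly below (7.07% of all genes), with a median of -0.998. Tsc22d3 (GILZ), a standard glucocorticoid target, had 137, 304 and 447 CPM in sham 1, sham 2 and uninjured and 80.9, 52.6 and 104 CPM in the injured libraries (edgeR adjusted p = 0.452). Per1 had a log2 fold change of -1.32 ± 0.48, while Fkbp5, another standard target, had -0.12 ± 0.47, Mt2 0.04 ± 0.51 and Ddit4 0.14 ± 0.56 (SE). By edgeR 0 passed over all genes, and DESeq2 called 1, Tsc22d3. The count with an unadjusted p under 0.05 was 1 without injured 2, 2 without the uninjured library and 3 without injured 3.

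Growth arrest genes were read because Apod is known to rise in resting fibroblasts. Of 20 tested, 15 had a log2 fold change below 0 (49.9% of all genes), 7 had an unadjusted p under 0.05, all lower (3.72%), and 6 lay wholly below (7.07%). The cell cycle inhibitor Cdkn1c was the 1 wholly above (9.23%), and the list had a median of -1.06. Foxo1, a forkhead factor active in resting cells, had 122, 347 and 331 CPM in sham 1, sham 2 and uninjured and 39.8, 92.3 and 71.3 CPM in the injured libraries (edgeR adjusted p = 0.452). Cdkn1a (p21), which halts the cell cycle, had a log2 fold change of -1.34 ± 0.36 and the antiproliferative Btg2 of -1.58 ± 0.43 (SE). By edgeR 0 passed over all genes, whereas DESeq2 called 4 (2.45% of all genes), all lower: Pmp22, Cdkn1a, Foxo1 and Btg2. The count with an unadjusted p under 0.05 was 4 without injured 2 and 4 without the uninjured library.

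The genes nearest to each of the 4 in profile were found by the root mean square difference between centred log2(CPM + 1) values over the 6 libraries, and are a description. The added 1 shrinks differences close to 0 CPM, so a gene near in profile can still differ in fold change. Nearest to Angptl7 were Myoc, C7, Ppl, Lepr and Chad, at 0.62 to 1.31. Myoc (myocilin), a secreted glycoprotein of the eye outflow tissue, had 222, 194 and 834 CPM in sham 1, sham 2 and uninjured and 3.64, 0.793 and 9.81 CPM in the injured libraries. As for Angptl7, the uninjured library was the highest and injured 2 the lowest. Nearest to Clu were C7, Chad, Cilp2, Fgf1 and Ppl, at 0.47 to 0.96. C7, a terminal complement component, had 179, 262 and 683 CPM in the non-injured libraries and 3.89, 6.85 and 6.51 CPM in the injured ones.

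Among the nearest to Apod were Scg3, Fam124a, Gpc3 and Cilp, at 0.29 to 0.37. Scg3 was close to 0 in the injured libraries, at 0, 0 and 0.0642 CPM. Its log2 fold change was -8.53, against -3.49 for Apod. Gpc3, a membrane-anchored glypican, had 115, 65.3 and 163 CPM in sham 1, sham 2 and uninjured and 6.83, 10.1 and 14.5 CPM in the injured libraries. Among the nearest to Gsn were Fgf9, Tnxb, Cntfr and Hs3st1, at 0.29 to 0.42. Fgf9 was likewise close to 0 in the injured libraries, at 0.0226, 0.0165 and 0.107 CPM. Its log2 fold change was -8.45, against -3.78 for Gsn. Hs3st1, a heparan sulfate sulfotransferase, had 72.7, 30.5 and 85.1 CPM in the non-injured libraries and 3.26, 1.78 and 4.09 CPM in the injured ones, and like Gsn it was highest in the uninjured library.

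**Figure D4:**
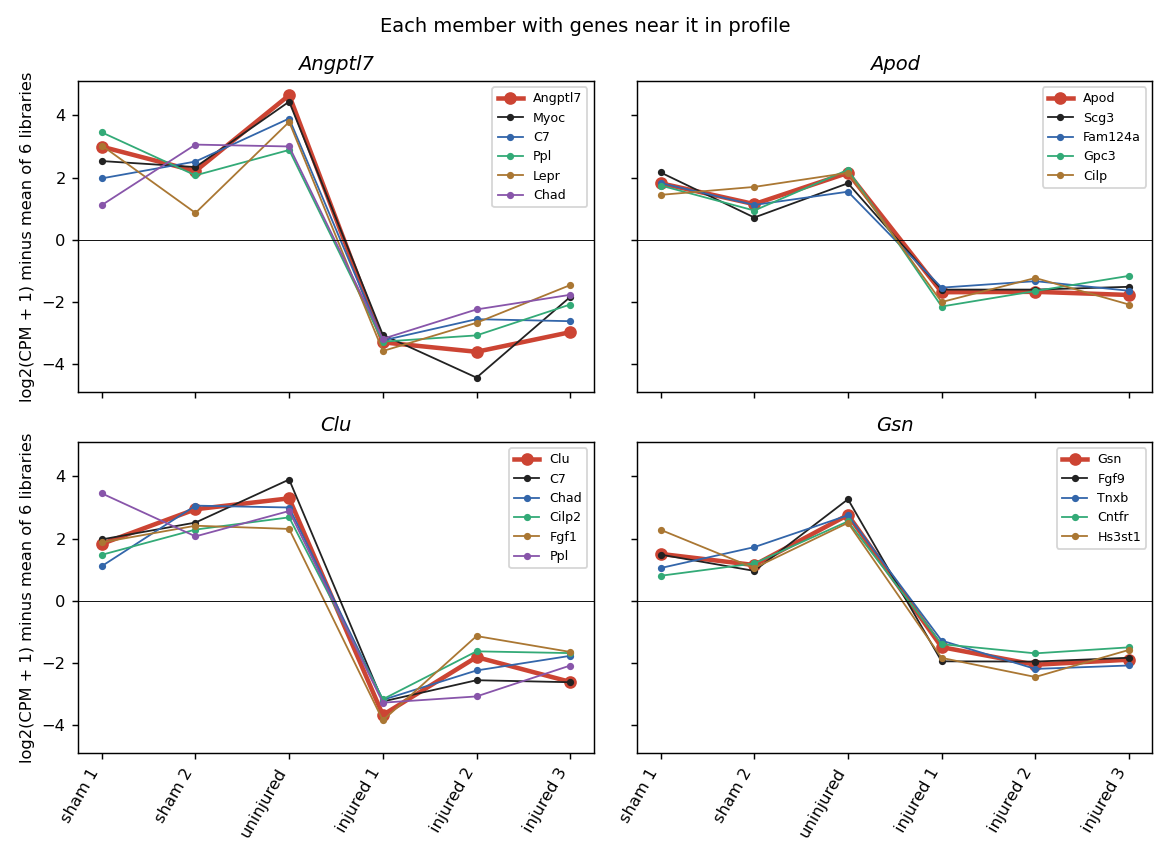
Centred log2(CPM + 1) by library for each of the 4 genes (thick red) and the genes named as near it in profile (thin lines). The injured libraries lie below 0 in every panel, and the uninjured library is the highest of the 6 for all 4 genes.

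Markers of other cell types were summed in each library beside the 4 genes. In bulk samples fewer cells of a type and less RNA per cell cannot be told apart. Macrophage, neutrophil and erythroid sums were highest in sham 1 and injured 1 and lowest in sham 2 and injured 3. The 10 macrophage genes summed to 2934, 17.8 and 150.5 CPM in sham 1, sham 2 and uninjured and to 4760.4, 1219 and 25.1 CPM in the injured libraries. The 8 neutrophil genes summed to 23.0 to 8828 CPM in non-injured and 4.20 to 5784 CPM in injured libraries, and the 6 erythroid genes to 1.19 to 38765 and 7.34 to 6077 CPM. These sums overlapped between the groups. Sham 2 and injured 3 still held macrophage counts, with 2.49 and 18.0 CPM of Lyz2 and 6.30 and 2.23 CPM of Csf1r. Between these 2 libraries Angptl7 was 37.8-fold, Clu 47.0-fold, Gsn 8.23-fold and Apod 7.66-fold higher in sham 2, in the direction fixed by the choice of genes. These ratios use the values that chose the genes, so nothing is read from them. The part of the macrophage, neutrophil and erythroid levels was not tested. The 8 endothelial genes all had a log2 fold change below 0 (49.9% of all genes), with a median of -2.03, and 0 lay wholly below (7.07% of all genes). They summed to 1373, 0.746 and 549 CPM in sham 1, sham 2 and uninjured and to 289.5, 127 and 66.3 CPM in the injured libraries. The sums were thus higher in sham 1 and uninjured than in every injured library, as for the 4 genes, and lowest in sham 2, where 6 of them had no count.

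Schwann cell genes were low in the same libraries in part. The 8 Schwann genes summed to 5159, 846 and 940.5 CPM in sham 1, sham 2 and uninjured and to 582, 322 and 298 CPM in the injured libraries, so the sums did not overlap. All 8 had a log2 fold change below 0 (49.9% of all genes), and 2 lay wholly below (7.07% of all genes), Pmp22 and Mbp. Pmp22, which is also on the growth arrest list, had 1689, 549.6 and 786 and 348, 276 and 224 CPM, most of the sum outside sham 1. Without Pmp22, an alternative chosen after seeing the data, the other 7 genes summed to 3469, 297 and 154 CPM in sham 1, sham 2 and uninjured and to 234, 45.8 and 73.4 CPM in the injured libraries, and these sums overlapped. The defining factor Sox10 had 35.7, 0.331 and 0 CPM in the non-injured and 6.38, 0.809 and 1.26 CPM in the injured libraries. Apod is also known in Schwann cells and nerve fibroblasts, and in the uninjured library, where Sox10 and Mag had no count, Apod was at its highest.

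Perineurial and endoneurial genes summed to 516 to 1454 CPM in non-injured and 301 to 677 CPM in injured libraries. Of 7 tested, 2 lay wholly below (7.07% of all genes), Cldn1 and Ntn4, and Ntn4 had 78.5, 100.3 and 98.3 against 11.8, 22.9 and 30.4 CPM. Smooth muscle and pericyte genes summed to 1007 to 1844 and 795 to 1461 CPM. Of 8 tested, 1 lay wholly below (7.07% of all genes), the contractile myosin Myh11, at 199, 40.7 and 299 against 7.54, 6.51 and 31.1 CPM. The stem and progenitor list summed to 546 to 2641 and 1091 to 3819.9 CPM, the tendon list to 8047 to 17650.4 and 6117 to 11142 CPM and the skeletal muscle list to 14.1 to 44.0 and 31.5 to 85.0 CPM, non-injured first. All of these sums overlapped. Wholly above lay 1 of 8 stem and progenitor genes tested (Pdpn), 2 of 8 tendon genes (Scx and Tnc) and 3 of 6 skeletal muscle genes. Over all genes this share was 9.23%. In each of these lists 0 genes lay wholly below (7.07% of all genes). The muscle genes wholly above, Ckm, Tnnt3 and Tnni2, were low, at 6.77 CPM or less in every library. The part of the endothelial, Schwann, perineurial and smooth muscle levels in the results was not tested.

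**Figure D5:**
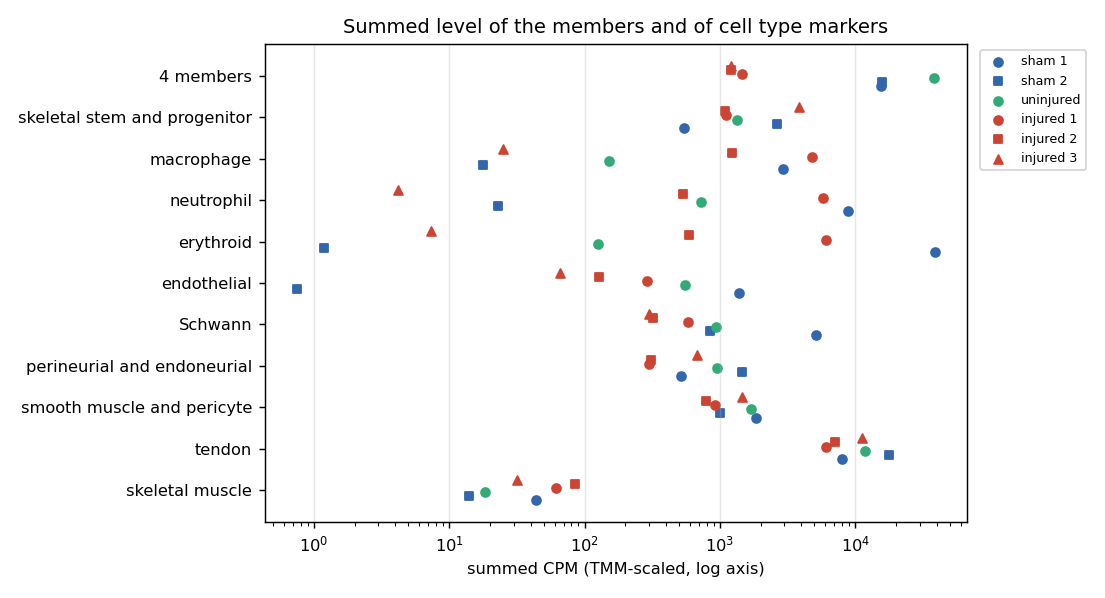
Summed CPM (log axis) of the 4 genes and of each cell type marker list in each library, with sham in blue, uninjured in green and injured in red, and the replicate number shown by circle, square and triangle. The 4 genes sum to 15498 CPM or more in non-injured and to 1468 CPM or less in injured libraries, and of the marker lists plotted the Schwann sums alone also separate the groups, though not without Pmp22.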

How the data were processed

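RNA of sorted mouse skeletal stem cells was measured in 6 libraries made from 150 pg of total RNA each with a SMARTer low-input kit, per the labels' protocols. The authors deposited whole-number counts per gene symbol. The submitters' processing notes name Salmon 0.12.0, DESeq2 1.22.2, DESeq and the builds GRCm38.p6 and mm9 but give none of them a role, so the coordinates printed are those of the reference annotation (GENCODE for genes, RefSeq for promoters). Low input and amplification without molecular identifiers mean that counts are not independent molecules. As deposited, 26 gene names read as dates. All 6 count columns were used.

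Counts were scaled by TMM, filtered with filterByExpr (minimum count 10) and tested with edgeR 4.0.16 (R 4.3.3) by its quasi-likelihood test, and p-values were adjusted by Benjamini and Hochberg's method across every gene tested at 0.05, with 2 groups against all non-injured libraries and 3 groups against sham control. Alternatives used limma 3.58.1, DESeq2 1.42.0, other scalings, no filter and left-out libraries. The code was tested on simulated data. SEs were derived from the F statistic. CPM uses the scaled library size. The 4 genes and the 20 gene lists were chosen with earlier results of these data known. The genes named are the 4, up to 4 genes per list with the smallest p, near relatives, the 5 nearest profiles and surface genes, while others were chosen after their values were seen. Of 245 listed genes 2 had no row. Results for some genes of these lists are not reported here, in text or figures.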

Additional observations from a re-analysis of the deposited data

How the results depend on the processing

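The direction of the 4 genes is fixed by how they were chosen, so only its size is followed here, in edgeR under other scalings, without a filter and with libraries left out. Leaving out 1 library each gave log2 fold changes against all non-injured libraries of -7.39 to -6.01 for Angptl7 and -4.06 to -3.14 for Gsn, the smallest differences being those without the uninjured library. Against sham control they gave -6.34 to -5.55 for Angptl7, -3.54 to -2.87 for Apod and -5.52 to -4.34 for Clu. The Clu difference was smallest without sham 2. Without sham 1 and injured 1 together Gsn stood at -4.14. Replicate numbers are shared by 2 sham and 2 injured libraries, and the labels do not say that they mark pairs. The deviations of sham 1 correlated at 0.256 with those of injured 1 and at -0.256 with those of injured 2. With 2 libraries taken per group these values mirror each other, so they do not show pairing. A fit with the replicate number as a block called 0 genes and gave Angptl7 -6.16, Apod -3.20, Clu -5.16 and Gsn -3.12.

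The number of genes called depends on the tool. Against all non-injured libraries it was 0 by edgeR, 5 without a filter, 7 by limma-voom and 345 by DESeq2, against sham control 0, 3, 1 and 369, and for uninjured against sham 0 by edgeR and limma-voom and 660 by DESeq2. The cause was not tested.

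Family medians are unstable. Leaving out 1 library each, the angiopoietin family ranged from 0.38 to 1.35, the apolipoproteins from -1.21 to 0.04, the clusterin partners from -0.59 to 0.44 and the gelsolin family from -0.76 to 0.17. The lipocalins ranged from -0.55 to 0.44, with 0.07 without the uninjured library and 2.55 without a filter, which adds low-count genes. The glucocorticoid median ranged from -1.07 to -0.74 and the growth arrest median from -1.25 to -0.90. Members with an unadjusted p under 0.05 ranged from 1 to 6 and from 4 to 9, and glucocorticoid genes wholly below from 5 to 9. With sham 1 and injured 1 out, 35 of 42 stromal, 11 of 17 glucocorticoid and 11 of 20 growth arrest genes lay wholly below. Of all genes 19.5% did, against 7.07% with all 6 libraries, since fewer libraries overlap less often. The lists were chosen with earlier results of these data known, so these shares describe them and are not independent evidence. Single genes changed sign when 1 library was left out: Rbp4 ranged from -0.29 to 0.78, Abcg1 from -2.35 to 0.28, Capg from -0.054 to 0.71, Scin from -1.12 to 1.19, Angptl1 from -0.52 to 0.45, Svil from -0.72 to 0.79 and Mtor from -0.48 to 0.29. Without sham 1 and injured 1, Rbp4 stood at -0.00012 and Mtor at 0.13. The lowest count of the 4 genes was 714 reads, which after amplification are not independent molecules.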
